A study of Caenorhabditis elegans with 14 samples.

Results

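The replication-dependent core histone genes of Caenorhabditis elegans are the his genes numbered 1 to 68, without the linker histone gene his-24. They were picked out by name, but with earlier results of these data known. By matching sequence names to RefSeq symbols 65 of them were found among 20524 protein-coding genes with a row, and his-23 and his-36, which got no match, were not analysed here. The 65 are 17 H2A, 16 H2B, 15 H3 and 16 H4 genes, and his-39, which has 201 coding bases and was given no type. Small RNA libraries were made from late young adults grown at 20 °C on E. coli OP50, from RNA of 17 to 30 nt purified from a gel. The control strain was N2. The mutants were tofu-6(it20), tofu-6(ust94), tofu-6(ust95), tofu-6(yt2), pics-1(tm2417), erh-2(ust101), prg-1(n4503) and tost-1(ust103). TOFU-6, PICS-1 and ERH-2 are subunits of the PICS complex, TOST-1 is an alternative partner of it, and PRG-1 is the Argonaute that binds mature piRNAs. There were 6 untreated libraries, of N2 and of tost-1, prg-1, erh-2, pics-1 and tofu-6(ust94). Another 8 libraries, called TDP2 libraries here, came from RNA treated with calf intestinal phosphatase and then with Tobacco Decapping plus 2, a decapping enzyme: N2, the 4 tofu-6 alleles, pics-1, erh-2 and prg-1. Values of the tofu-6 alleles are given in the order it20, then ust94, then ust95, then yt2. Every genotype and treatment had 1 library, so only the 4 tofu-6 alleles give a spread, and they are different mutations of 1 gene rather than repeats of a strain.

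Core histones form the protein spool around which DNA is wrapped, in an octamer of H2A, H2B, H3 and H4. Replication-dependent histone genes exist in many near-identical copies and are transcribed mainly when DNA is copied. Their mRNAs end in a stem-loop in place of a poly(A) tail, are bound there by the stem-loop binding protein CDL-1, and are degraded quickly when replication stops. A late young adult makes these mRNAs chiefly in the germline, where nuclei still replicate. In small RNA libraries, sense reads of such a gene are short pieces of its mRNA. Antisense reads are mostly secondary small RNAs, which RNA-dependent RNA polymerases copy from the mRNA. Those RNAs carry a 5′ triphosphate that a plain cloning protocol misses. The TDP2 libraries had phosphatase before the decapping enzyme, and which 5′ ends their sense and antisense reads came from was not tested.

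By the Ensembl gene models on WBcel235, 61 of the 65 genes have no intron in the coding sequence. Among the intronless genes with a type the coding sequence is shortest in the H4 and longest in the H3 genes. Types were assigned from coding length, so this order follows from that choice. The genes lie on chromosomes V (26 genes), IV (22), II (13), I (2) and X (2). Of them 62 stand in 31 divergent pairs with 227 to 368 bases between the genes: 16 pairs of H2A with H2B, 14 of H3 with H4, and his-67 (H4) with his-68 (H2A). The annotation gives 36 genes a name shared with another copy, and reads from near-identical copies may be shared out among copies or counted more than once, so values of single copies are uncertain and sums over a histone type are the firmer measure. A cluster of 3 analysed genes on chromosome V has 1 intron per gene: his-35 (H2A, bases 9544659 to 9545288, minus strand), his-41 (H2B, 9545536 to 9546264, plus strand) and his-37 (H4, 9547105 to 9547607, plus strand). The remaining gene with introns is his-57 (H2A), with 2. Another annotated gene overlaps 8 members: his-57 lies opposite klp-12, his-37 opposite nstp-10, his-16 and 4 others opposite an annotated noncoding RNA, and his-41 shares its strand with part of C50F4.6. The gene identifier of C50F4.6 falls between those of his-35 and his-37, so it may be his-36, which was not analysed.

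The libraries held 6918136 to 13469619 assigned reads. Of the TDP2 libraries N2 had most microRNA reads, at 777968. The others had 131366 in prg-1, 109228 in erh-2, 297787 in pics-1, and 143809, 171303, 376860 and 246535 in the tofu-6 alleles. Scaling to microRNA reads thus raises every mutant against N2 in these libraries. All 65 genes had sense reads in all 14 libraries. Each mutated gene kept 7 or more sense reads in every library of its own mutant. The level was lower than in N2 for tofu-6 in ust94 (1.53 against 8.34 reads per 1000000 assigned reads, RPM, untreated, 1.81 against 12.7 after TDP2), for pics-1, annotated as pid-3, in pics-1(tm2417) (1.52 against 5.23 untreated) and for tost-1 in its mutant (1.01 against 4.24). For erh-2, prg-1 and the other tofu-6 alleles the reads did not separate mutant from N2 this clearly. Summed sense reads of 19 germline and oocyte genes were 1015 RPM in untreated N2, 775 in prg-1 and 1859 to 2095 in the other 4 untreated mutants. Summed sense reads of 42 sperm genes were 29.0 RPM in untreated N2, 72.1 in prg-1, 3.18 in tost-1, 1.79 in erh-2, 4.64 in pics-1 and 14.3 in tofu-6(ust94). Of the sperm genes 4 were at 0 in N2, 1 in prg-1, 29 in tost-1, 31 in erh-2, 17 in pics-1 and 3 in tofu-6(ust94). Of 14 muscle genes the sum was 509 to 1248 RPM, and of 6 vitellogenin genes, which mark the adult intestine, 5716 to 16097 RPM, lowest in prg-1 and N2. Whole animals were sampled, so fewer cells of a type and less RNA per cell cannot be told apart.

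Sense reads of the histone genes were lower in untreated mutants of the PICS complex and of tost-1 than in N2, for all 4 histone types. Summed over the 65 genes, the level was 1334 RPM in N2, 911 in prg-1, 186 in tost-1, 176 in erh-2, 173 in pics-1 and 164 in tofu-6(ust94). The ratio to N2 was 0.123 for tofu-6(ust94) (95% counting interval 0.117 to 0.129), 0.130 for pics-1 (0.123 to 0.137), 0.132 for erh-2 (0.125 to 0.139), 0.139 for tost-1 (0.131 to 0.148) and 0.683 for prg-1 (0.663 to 0.703). The intervals are exact conditional binomial and cover counting error only. With 1 library a side there is no test. The prg-1 library thus stood between N2 and the other mutants. Among the types, H3 had the lowest ratio to N2 in all 4 low mutants, from 0.0932 in erh-2 to 0.114 in tost-1. H4 had the highest in pics-1 (0.149), erh-2 (0.153) and tost-1 (0.172), while in tofu-6(ust94) H2B stood at 0.143 and H4 at 0.132. In the 4 low mutants the sperm markers were lower than in N2 and the germline and oocyte markers higher, and in prg-1 the sperm markers were higher. The part of these markers in the histone values was not tested.

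**Figure D1:**
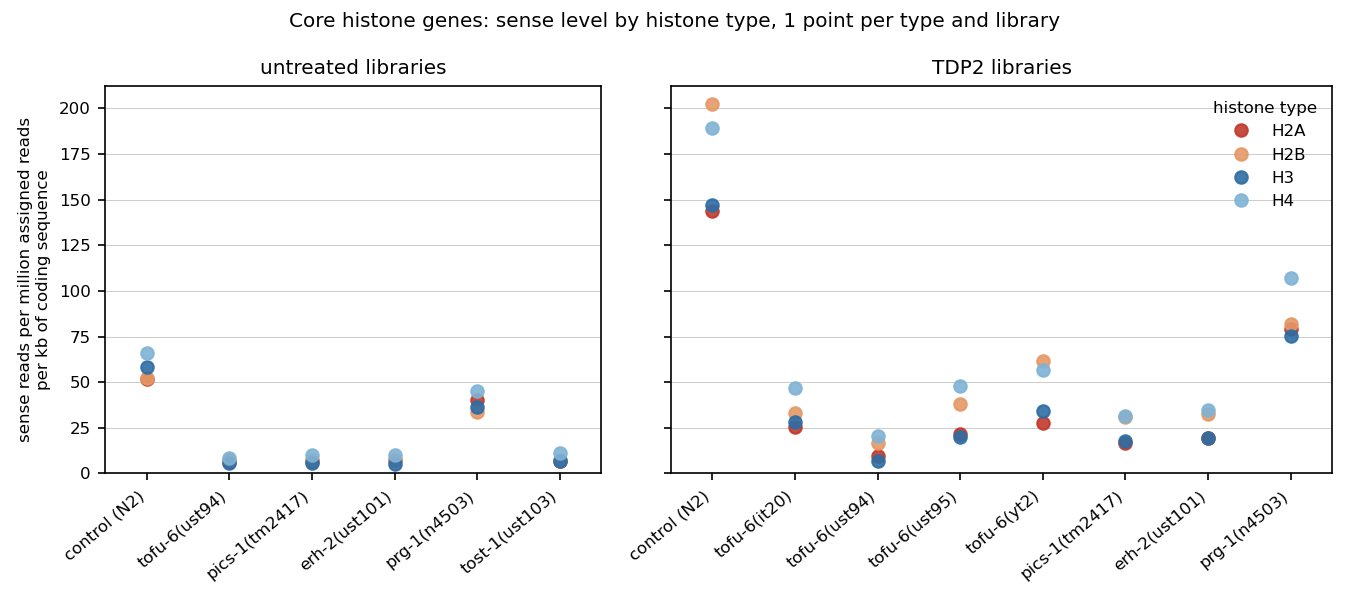
Summed sense RPM per kb of coding sequence for each histone type (colours) in each library, 1 point per type and library, linear axis from 0. In the untreated panel N2 stands between 52.0 and 66.2, prg-1 between 33.9 and 45.3, and the other 4 mutants at 11.4 or less. In the TDP2 panel N2 stands between 144 and 202, prg-1 between 75.3 and 107, and the other mutants at 61.5 or less. Scaled to microRNA reads, the summed levels of prg-1 and erh-2 in TDP2 libraries are above N2. Those 2 libraries had 131366 and 109228 microRNA reads, and that of N2 had 777968.

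Per kb of coding sequence the histone types were close to each other. In untreated N2, H4 had 66.2 RPM per kb, H3 58.3, H2B 52.5 and H2A 52.0. In untreated prg-1 the order was H4 at 45.3, H2A at 40.4, H3 at 36.4 and H2B at 33.9. No replicate gives a spread for these levels. The plot of sense level by type shows the same separation of libraries for each type.

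The low sense level was shared by nearly all copies. Counting a gene as lower when its RPM was below N2 by more than 2-fold, with 10 or more reads in 1 of the 2 libraries, 61 of 64 genes were lower in tofu-6(ust94), where 5.18% of all features were. In pics-1 it was 61 of 64 (8.74% of all features), in erh-2 61 of 64 (9.74%), in tost-1 62 of 63 (6.88%) and in prg-1 4 of 63 (15.1%). The median ratio over the genes was 0.124, 0.120, 0.130, 0.132 and 0.652 in these libraries. Over all features it was 1.73, 1.72, 1.51, 1.38 and 0.874. The 5 comparisons share the N2 library. The one gene past 2-fold higher was his-41, in tofu-6(ust94) (37.7% of features), pics-1 (36.7%) and erh-2 (25.0%). Scaled to microRNA reads, 45 of 63 genes were lower in prg-1 in place of 4.

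The H2A gene with most sense reads, his-47 (chromosome IV, 11324056 to 11324439, minus strand), had 419 reads or 59.3 RPM in untreated N2. It had 47.0 RPM in prg-1, 7.37 in tost-1, 8.37 in erh-2, 6.82 in pics-1 and 6.28 in tofu-6(ust94). The H3 gene his-45 had 45.8 RPM in N2, 31.1 in prg-1, 5.49 in tost-1, 4.90 in erh-2, 4.83 in pics-1 and 3.99 in tofu-6(ust94). For both genes N2 and prg-1 were high and the other 4 libraries low. The H2B gene his-11 had 29.4 RPM in N2, 18.3 in prg-1, 2.46 in tost-1, 2.87 in erh-2, 2.94 in pics-1 and 2.21 in tofu-6(ust94). The H4 gene his-18 had 28.3 RPM in N2, 15.6 in prg-1, 5.78 in tost-1, 3.71 in erh-2, 3.41 in pics-1 and 4.08 in tofu-6(ust94).

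The 3 neighbouring genes with an intron did not share the low level, an observation made after their values were seen. Their summed sense level was 7.78 RPM in untreated N2, 9.26 in prg-1, 6.79 in tost-1, 8.37 in erh-2, 13.7 in pics-1 and 12.7 in tofu-6(ust94). The ratio to N2 was 0.873 in tost-1 (0.579 to 1.31), 1.08 in erh-2 (0.745 to 1.56), 1.77 in pics-1 (1.29 to 2.45) and 1.64 in tofu-6(ust94) (1.19 to 2.27). Scaled to microRNA reads it was below 1 in all 5 mutants. The 61 genes without introns had ratios of 0.135, 0.125, 0.120 and 0.115 in the same 4 mutants, in the same order. The H4 gene his-37 had 4.24 RPM in N2, 6.60 in prg-1, 4.63 in tost-1, 4.304 in erh-2, 8.24 in pics-1 and 6.54 in tofu-6(ust94). The H2B gene his-41 had only 3 reads in untreated N2 and 38 in tofu-6(ust94), a ratio of 7.60 with an interval of 2.41 to 38.5. Part of its span is shared on the same strand with C50F4.6, which may be his-36, so those reads cannot be assigned to it alone. The H2A gene his-35 had 3.11 RPM in N2, 2.07 in prg-1, 1.30 in tost-1, 2.75 in erh-2, 3.03 in pics-1 and 2.97 in tofu-6(ust94).

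In TDP2 libraries the summed sense level was 3970 RPM in N2, 766 in tofu-6(it20), 303 in tofu-6(ust94), 723 in tofu-6(ust95), 1033 in tofu-6(yt2), 1990 in prg-1, 610 in erh-2 and 557 in pics-1. All 4 tofu-6 alleles lay below N2 and below prg-1, with a mean of 706 ± 302 RPM (SD, n = 4). Tested with edgeR's quasi-likelihood test on all features, 0 of 65 genes passed an adjusted p of 0.05 between tofu-6 and N2, where 0.0894% of features were called higher and 0.170% lower. At an unadjusted p below 0.05 there were 50, where 1256 of 22372 features were. DESeq2, which gave 45 of the genes no adjusted p, called 1, lower. The median log2 change was −2.22 over the 65 genes, 0.14 over all features and 0.82 over the sense reads of protein-coding genes. Scaled to microRNA reads it was −0.44, where the median of all features was 1.88, and the summed level of it20 was 0.985 of N2 while the other alleles stood at 0.309, 0.371 and 0.719. On the same strand 31 sperm genes had a median of −1.38 and the 8 mir-35 family microRNAs, which mark embryos and oocytes, −2.09. The 19 germline and oocyte genes went the other way, with a median of 1.00. Of these markers 0 were called, and their part was not tested. Untreated, the mir-35 sum was 12118 RPM in N2, 22318 in tofu-6(ust94), 15974 in pics-1 and 16716 in erh-2. In untreated prg-1 and tost-1 that sum was 8667 and 8176. In all 4 alleles 62 of the 65 genes were below N2 in RPM, where 12.4% of all sense features were. The gene above N2 in all 4 alleles was 1 of 65 (47.5% of sense features). The test's spread comes from the 4 alleles alone, with 3 residual degrees of freedom, and p-values measure only the spread between these libraries. Without the yt2 library 7 genes were called lower.

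The lowest p in this comparison belonged to his-54 (H2B, chromosome V, 8853006 to 8853377, minus strand). It had 133 RPM in N2, 22.3, 6.02, 13.3 and 28.7 in the 4 tofu-6 alleles, 23.4 in prg-1, 19.2 in erh-2 and 33.2 in pics-1. All mutants lay below N2. The log2 change was −3.01 ± 0.81 (SE) for tofu-6 (edgeR adjusted p = 0.0643) and −2.06 ± 1.22 for prg-1 (adjusted p = 0.600). The 3 genes with introns again stood apart: their sum was 33.5 RPM in N2, 31.5, 39.0, 42.0 and 34.8 in the 4 tofu-6 alleles, 29.5 in prg-1, 52.7 in erh-2 and 24.97 in pics-1. The N2 value lay inside the range of the tofu-6 alleles (mean 36.8 ± 4.62 RPM, SD, n = 4).

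For pics-1 against N2, 0 of 65 genes passed on the sense strand by edgeR or DESeq2, with 0.0179% of features called higher and 0.0358% lower. At an unadjusted p below 0.05 there were 54, where 1174 of 22372 features were. The median log2 change was −3.18, against −0.03 over all features, or −1.68 against 1.47 scaled to microRNA reads. The sperm genes had a median of −4.58, the mir-35 family −1.68 and the germline and oocyte genes 0.46, with 0 called. Nearest to the threshold was his-65 (H2A), with 17.2 RPM in N2 and 0.757 in pics-1 (log2 −4.83 ± 1.44, edgeR adjusted p = 0.183). For erh-2 against N2, 0 passed by either tool, with 0.0581% of features called higher and 0.112% lower. At an unadjusted p below 0.05 there were 31, where 2410 of 22372 features were. The median was −2.43, against −0.09 over all features; scaled to microRNA reads it was 0.49, where the median of all features was 2.79. The sperm genes had a median of −5.29, with 4 of 31 called lower, and the mir-35 family −2.39. The germline and oocyte genes had a median of 1.57, with 0 called. The part of these markers was not tested. The lowest p was that of his-43 (H2A), with 18.5 RPM in N2 and 0.891 in erh-2 (log2 −3.92 ± 1.36, edgeR adjusted p = 0.263). For prg-1 against N2, 0 of 65 passed by either tool, with 0.0894% of features called higher and 5.54% lower. At an unadjusted p below 0.05 there were 0, where 2736 of 22372 features were. The median was −0.18, against −0.11 over all features. Under every other scaling tried both medians were positive. They were 0.07 against 0.14 with RLE scaling, 1.85 against 1.89 with microRNA scaling and 0.03 against 0.10 with reads outside structural RNA.

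Between the tofu-6 alleles and prg-1, which share a reduced level against N2 on the RPM scale, the sense reads of 15 of 65 genes fell in tofu-6 by edgeR, where 0.764% of features were called lower and 6.43% higher. They were 10 of 17 H2A, 4 of 15 H3, 1 of 16 H4 and 0 of 16 H2B genes. The median log2 change was −1.93 over the 65 genes and 0.52 over all features. The H3 gene his-2 had 2.28, 0.964, 4.79 and 9.32 RPM in the alleles and 23.3 in prg-1 (log2 −3.02 ± 0.82, edgeR adjusted p = 0.00544). The H2A gene his-21 had 1.14, 0.964, 1.63 and 3.07 RPM in the alleles and 9.34 in prg-1 (log2 −2.98 ± 0.85, edgeR adjusted p = 0.00967). The H4 gene his-67 had 57.3, 12.0, 30.0 and 63.3 RPM in the alleles and 214 in prg-1 (log2 −2.92 ± 0.83, edgeR adjusted p = 0.00929). In each of the 3 all alleles lay below prg-1, as at 54 of the 65 genes (7.46% of sense features). In the same comparison 18 of 31 tested sperm genes fell, and the part of sperm cells in the histone values was not tested. The call was not stable: without it20 0 genes passed and without ust95 2, while without yt2 31 did. With RLE scaling 5 passed, with microRNA scaling 6, and with the copies of each type summed 0 of 5 sums.

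**Figure D2:**
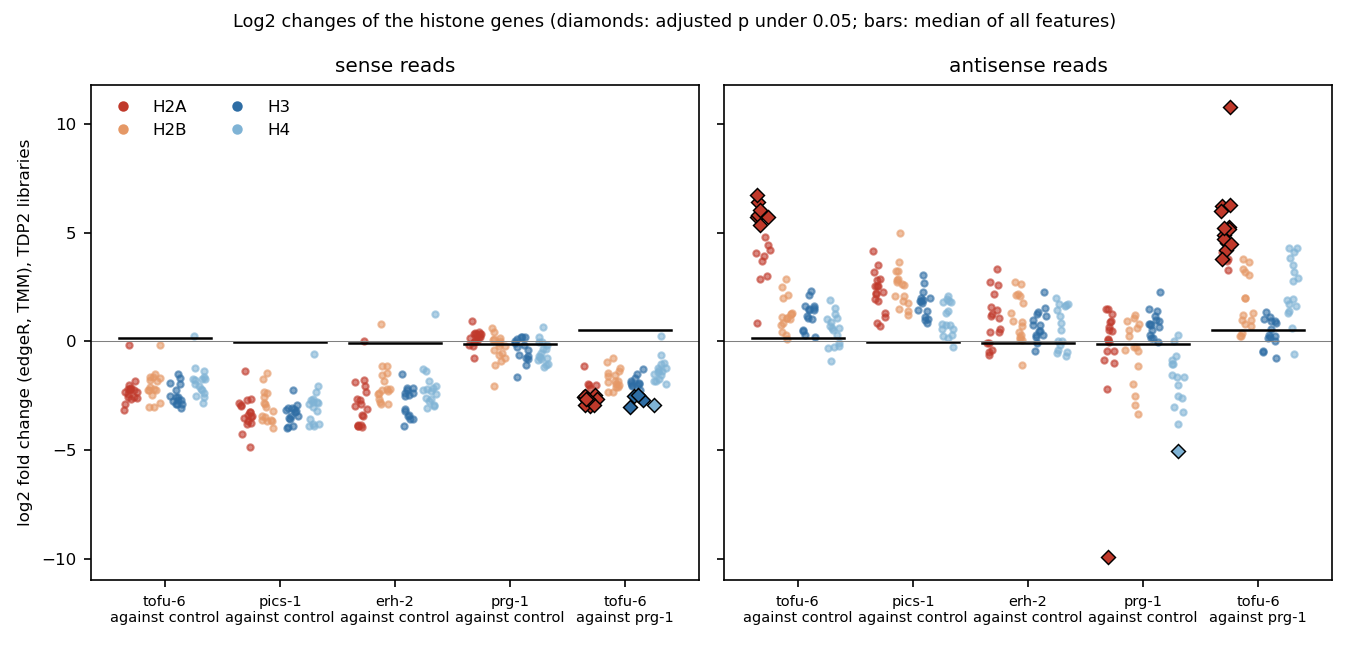
Log2 fold changes of the 64 histone genes with a type (points, coloured by type) in 5 comparisons of TDP2 libraries, sense left and antisense right, with edgeR and TMM scaling. Diamonds mark an adjusted p under 0.05 and black bars the median of all features; the H2A genes lead the antisense panel of tofu-6, and scaling to microRNA reads would raise the points and the bar of erh-2 and prg-1 together.

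After TDP2 treatment the sense level of particular copies was much higher in RPM, while most copies were near their untreated RPM. In the 5 strains with both libraries, compared with strain as a block, 11 of 65 genes rose on the sense strand and 7 fell by edgeR. Of all features 42.9% were called higher and 12.4% lower. The 11 were 5 H2B, 3 H4, 2 H3 and 1 H2A genes, and the 7 were 5 H2A, 1 H2B and 1 H3. Those shares mix both strands: of the sense reads of protein-coding genes 10.2% were called higher and 14.7% lower, with a median log2 change of −0.33. The median over the 65 genes was −0.36, close to that of their own strand. Without the strain block 6 genes were called, all higher. Scaled to microRNA reads, the median was 1.86, 25 genes were called, all higher, and the 7 that fell turned positive. Under that scaling the median of all features was 2.92, with 13408 of 21673 features called higher and 376 lower. Scaled to reads outside structural RNA the median was 0.42 and 14 genes were called, all higher. There the median of all features was 1.45, with 10976 of 21673 features called higher and 872 lower. Both settings shared 11 calls with the TMM result.

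The largest rises were those of his-11, his-54 and his-18. The H2B gene his-11 (chromosome II, 13821809 to 13822177, plus strand) went from 29.4 to 438 RPM in N2, 18.3 to 151 in prg-1, 2.87 to 71.2 in erh-2, 2.94 to 77.4 in pics-1 and 2.21 to 37.5 in tofu-6(ust94). Its log2 change was 3.58 ± 0.38 (edgeR adjusted p = 0.000104), higher in 5 of 5 strains. The H4 gene his-18 went from 28.3 to 418 RPM in N2, 15.6 to 143 in prg-1, 3.71 to 67.5 in erh-2, 3.41 to 73.5 in pics-1 and 4.08 to 27.5 in tofu-6(ust94). Its log2 change was 3.21 ± 0.37 (edgeR adjusted p = 0.000136). In every strain both genes were far above their untreated value. The H2B gene his-54 went from 5.80 to 133 RPM in N2, 3.64 to 23.4 in prg-1, 1.196 to 19.2 in erh-2, 0.853 to 33.2 in pics-1 and 1.44 to 6.02 in tofu-6(ust94) (log2 3.22 ± 0.48, edgeR adjusted p = 0.000319). A further 2 were high on the log2 scale, chosen after their values were seen: his-47 at 2.68 ± 0.35 (edgeR adjusted p = 0.000182) and his-45 at 2.47 ± 0.37 (edgeR adjusted p = 0.000315).

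Of the 11 raised genes 6 have an annotation name of their own, his-18 among them. The other 5 share a name with further copies, and in each of those groups 1 copy rose. In TDP2 N2, his-54 had 1236 sense reads, while his-20, his-22 and his-52, which share its name, had 71, 76 and 65. Their untreated counts were alike, at 41, 49, 39 and 45. The gene his-47 had 6399 reads in TDP2 N2, against 491 at his-57 and 160 at his-65, and 419, 417 and 129 untreated. For his-11 the count was 4082, against 151 at his-15 and 150 at his-44, and 208, 123 and 112 untreated. For his-45 it was 4051, against 376 at his-55, and 324 and 254 untreated. The copies set beside the raised ones were chosen for their shared name. The ratio of TDP2 to untreated RPM was past 4 in all 5 strains for 4 genes: his-11, his-18, his-47 and his-54. By strain 8 copies were past it in N2, 7 in prg-1, 9 in erh-2, 7 in pics-1 and 5 in tofu-6(ust94), and the median copy had a ratio of 1.12, 1.14, 1.21, 1.40 and 0.896 in the same order. The raised copies were called over these same 5 strains, so a rise across strains is no separate result. The size of the rise varied: at his-41 the ratio was 15.7 in N2, 12.7 in prg-1, 6.60 in erh-2, 2.24 in tofu-6(ust94) and 1.28 in pics-1.

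**Figure D3:**
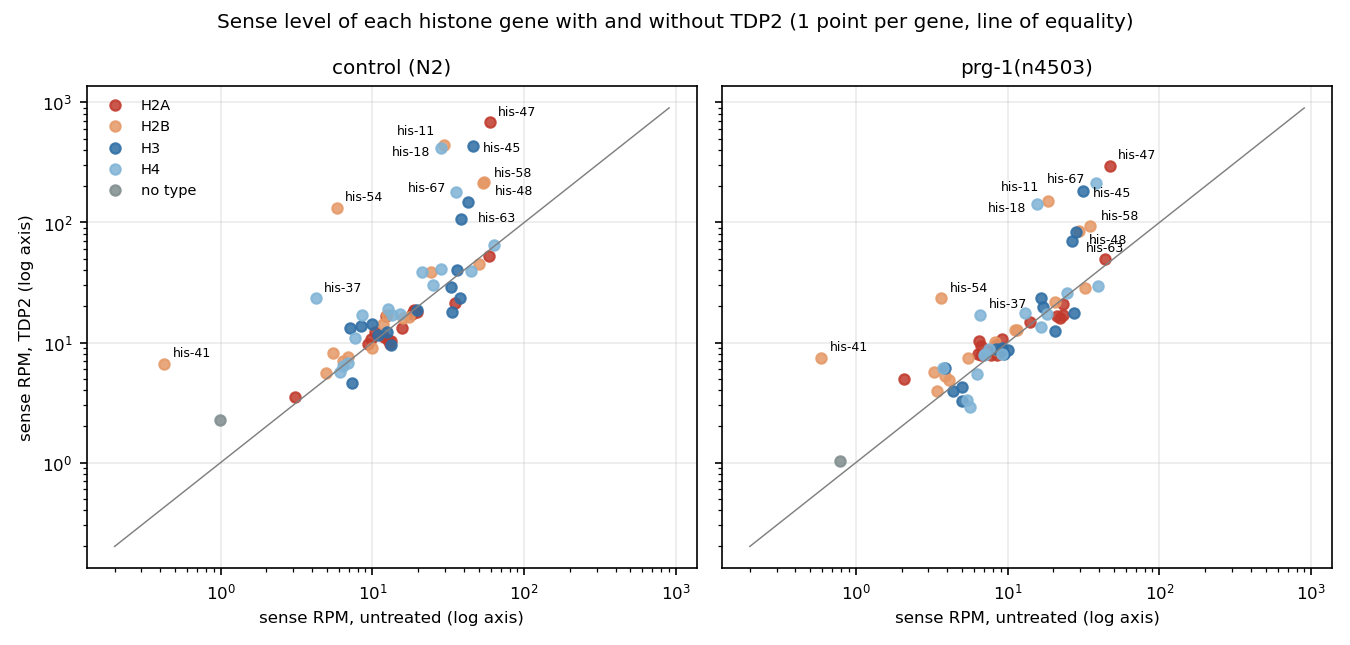
Sense RPM of each of the 65 histone genes in the untreated (x) and TDP2 (y) library of N2 (left) and prg-1 (right), log axes, 1 point per gene coloured by type, with the line of equality. The labelled genes are the 11 that rose over the 5 strains; in N2 his-47 reaches 687 RPM after TDP2, his-11 438, his-45 435 and his-18 418, from 28.3 to 59.3 untreated, while the bulk of copies lies along the line.

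Among the 7 genes lower after TDP2, his-61 (H2A, chromosome IV, 7485834 to 7486217, minus strand) changed most, by −1.19 ± 0.32 (edgeR adjusted p = 0.00911), and was lower in 5 of 5 strains. It had 35.2 RPM untreated and 21.2 after TDP2 in N2. Also called were his-43 at −1.14 ± 0.34 (edgeR adjusted p = 0.0135) and his-16 at −1.10 ± 0.33 (edgeR adjusted p = 0.0145). All 3 turned positive when scaled to microRNA reads, where the median of all features was 2.92. Of the genes with an intron, 2 were among those higher after TDP2: his-37 at 1.61 ± 0.37 (edgeR adjusted p = 0.00367) and his-41 at 1.77 ± 0.58 (edgeR adjusted p = 0.0226).

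Antisense reads were nearly absent without TDP2. The 65 genes together had 20 antisense reads in untreated N2, 26 in prg-1, 29 in tost-1, 44 in erh-2, 76 in pics-1 and 98 in tofu-6(ust94), and no gene had more than 7 in 1 library. With so few reads no single gene reached the 10 reads needed for a ratio. The ratio to N2 of the sum was 0.905 in prg-1 (0.486 to 1.71), 1.48 in tost-1 (0.810 to 2.76), 1.86 in erh-2 (1.07 to 3.33), 2.55 in pics-1 (1.54 to 4.40) and 2.94 in tofu-6(ust94) (1.81 to 5.03). After TDP2 64 of the 65 genes had antisense reads in all 8 libraries. Over the 5 strains 65 of 65 rose by edgeR, with a median log2 change of 4.11. Protein-coding genes as a whole did the same: 7213 of 7969 rose, with a median of 3.87. The largest changes were his-31 (H4) at 7.15 ± 1.12, his-49 (H3) at 6.09 ± 1.25 and his-26 (H4) at 6.07 ± 1.21, and their edgeR adjusted p was 0.00140, 0.00502 and 0.00430. All 3 had 0 antisense reads in the untreated library of each of the 5 strains, so the sizes of these changes depend on that 0. Without the pics-1 pair 41 of the 46 genes then tested rose.

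The antisense level differed among TDP2 libraries, and its widest gap rests on tofu-6(yt2) alone. Summed over the genes the antisense level was 107 RPM in N2, 50.7 in prg-1, 120 in erh-2 and 398 in pics-1, and 468, 67.2, 275 and 1799 in the tofu-6 alleles. The tofu-6 alleles thus lay on both sides of N2 (mean 652 ± 782 RPM, SD, n = 4). For every sense read the genes had 0.0271 antisense reads in N2, 0.0255 in prg-1, 0.196 in erh-2 and 0.714 in pics-1, and 0.611, 0.222, 0.380 and 1.74 in the 4 alleles. All 6 libraries of PICS mutants were above N2 on this ratio, which needs no library size.

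**Figure D4:**
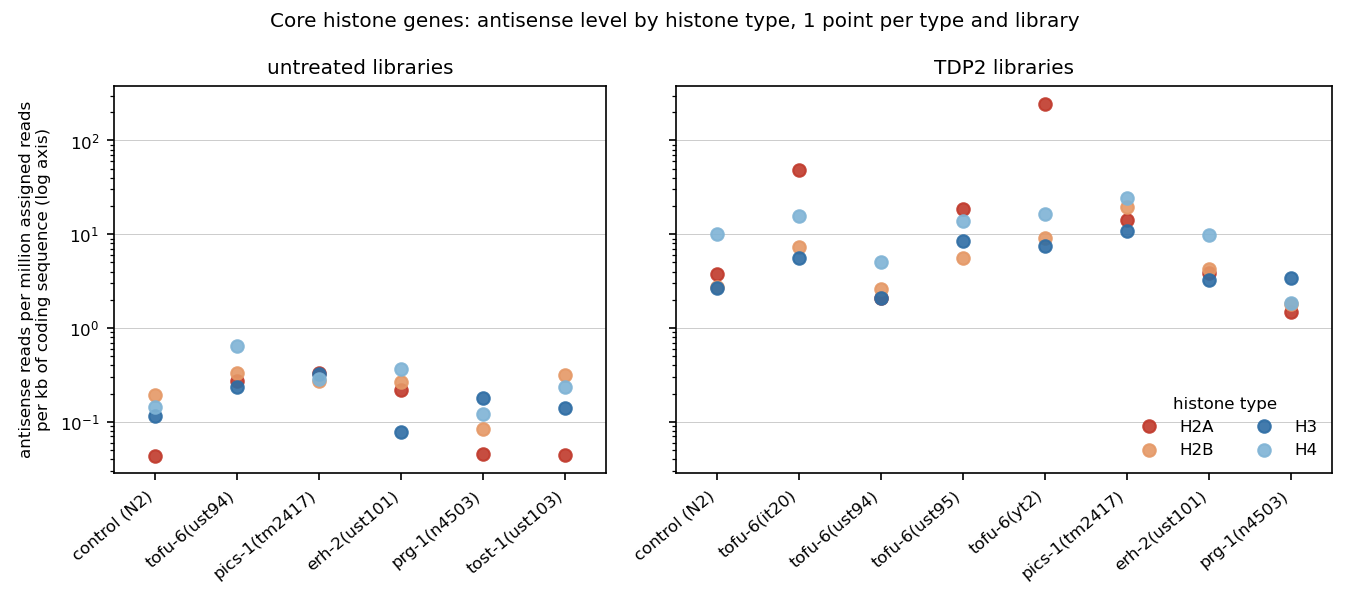
Summed antisense RPM per kb of coding sequence for each histone type (colours) in each library, 1 point per type and library, log axis. In TDP2 libraries H2A stands above the other types in tofu-6(it20), tofu-6(ust95) and tofu-6(yt2), at 47.9, 18.4 and 247, against 3.75 in N2, and H3 is highest in prg-1.

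All 4 alleles were above N2 at 22 of 65 genes (5.12% of antisense features), 4 of them H2A, 8 H2B, 6 H3 and 4 H4, and below N2 at 0 (27.7%). The H2A genes led the antisense signal in 3 of the 4 tofu-6 alleles. H2A genes had 24.5 RPM antisense in N2, 9.69 in prg-1, 24.9 in erh-2 and 93.7 in pics-1, and 313, 13.6, 120 and 1616 in the tofu-6 alleles. They held 22.8% of the antisense histone reads in N2 (exact 95% interval 20.2 to 25.5), 66.96% in it20 (65.5 to 68.4), 20.3% in ust94 (17.0 to 23.8), 43.7% in ust95 (41.8 to 45.7) and 89.8% in yt2 (89.3 to 90.3). The share was 19.1% in prg-1, 20.9% in erh-2 and 23.6% in pics-1. The ust94 library was thus like N2, and the other 3 alleles were not. For the other types the tofu-6 mean was 36.2 ± 16.3 RPM for H2B (N2 16.2), 36.4 ± 17.4 for H3 (N2 16.4) and 62.9 ± 25.6 for H4 (N2 49.4; SD, n = 4 each).

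By edgeR 8 of 65 genes rose antisense in tofu-6 against N2, all of them H2A, and 0 fell. Of all features 0.0894% were called higher. The antisense reads of all protein-coding genes had a median log2 change of −0.63. The H2A genes had a median of 4.82, the H2B genes 1.11, the H3 genes 1.43 and the H4 genes 0.63. The 8 were his-12, his-16, his-30, his-43, his-47, his-57, his-61 and his-65, with log2 changes of 5.36 to 6.73. They include his-12 with his-43, and his-47 with his-57 and his-65, which share a name. The call was not stable: 0 passed with RLE scaling, with microRNA scaling, by DESeq2, or without it20 or ust95, 4 passed without yt2 and 5 without ust94. RLE scaling left no feature called in this comparison, and DESeq2 gave 59 of the 65 genes no adjusted p, 4 of the 8 among them.

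Of the 8, his-30 had the largest change. It had 0.107 RPM in N2, 9.22, 0.723, 4.68 and 45.5 in the tofu-6 alleles, 0.115 in prg-1, 0.891 in erh-2 and 2.77 in pics-1. The N2 and prg-1 values are 1 read each, so the size of its change depends on that read. All 4 alleles lay above N2 (log2 6.73 ± 1.62, edgeR adjusted p = 0.0235). The gene his-16 had 0.215 RPM (2 reads) in N2 and 26.96, 0.120, 6.21 and 52.98 in the alleles (log2 6.39 ± 1.54, edgeR adjusted p = 0.0235). The gene his-61 had 0.752 RPM in N2 and 76.8, 0.241, 21.6 and 129 in the alleles (log2 6.06 ± 1.43, edgeR adjusted p = 0.0183). At these last genes ust94 was below N2 and the other 3 alleles above it. At his-47 the yt2 library had 401 RPM and it20, ust94 and ust95 had 16.8, 0.964 and 6.53, against 1.504 in N2 (log2 5.83 ± 1.42, edgeR adjusted p = 0.0249). Without yt2 its log2 change was 2.44 (edgeR adjusted p = 0.437). At his-57 the values were 410 in yt2, 32.5 in it20, 3.13 in ust94, 17.9 in ust95 and 1.83 in N2 (log2 5.70 ± 1.41, edgeR adjusted p = 0.0302), or 3.28 without yt2 (edgeR adjusted p = 0.227). Part of the his-57 span lies opposite klp-12, so antisense reads there may be sense reads of that gene. The muscle gene unc-87 also rose antisense in tofu-6 (log2 8.48 ± 1.68, edgeR adjusted p = 0.00139), and the muscle genes together had 426 RPM antisense in yt2 against 2.19 to 25.3 in the other TDP2 libraries. The part of the yt2 library's own make-up in the H2A values was not tested beyond leaving it out.

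Within the divergent pairs the H2A gene exceeded its H2B partner in those 3 alleles. In it20, ust95 and yt2 the H2A gene had more antisense reads than the H2B gene in 16 of 16 pairs. It did in 5 of 16 in N2, 5 in ust94, 4 in prg-1, 5 in erh-2 and 2 in pics-1. Over the 16 pairs the H2A genes had 12306 antisense reads and the H2B genes 436 in yt2, 2583 and 379 in it20, 1049 and 303 in ust95, and 216 and 151 in N2. Both genes of a pair come from 1 library, so this contrast does not depend on scaling. In the 14 pairs of H3 with H4 the H3 gene had more antisense reads in 14 of 14 in prg-1, and in 2 in N2, 3, 4, 7 and 6 in the 4 alleles, 2 in erh-2 and 3 in pics-1. Pairs within a library are not replicates, and these counts were not tested.

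**Figure D5:**
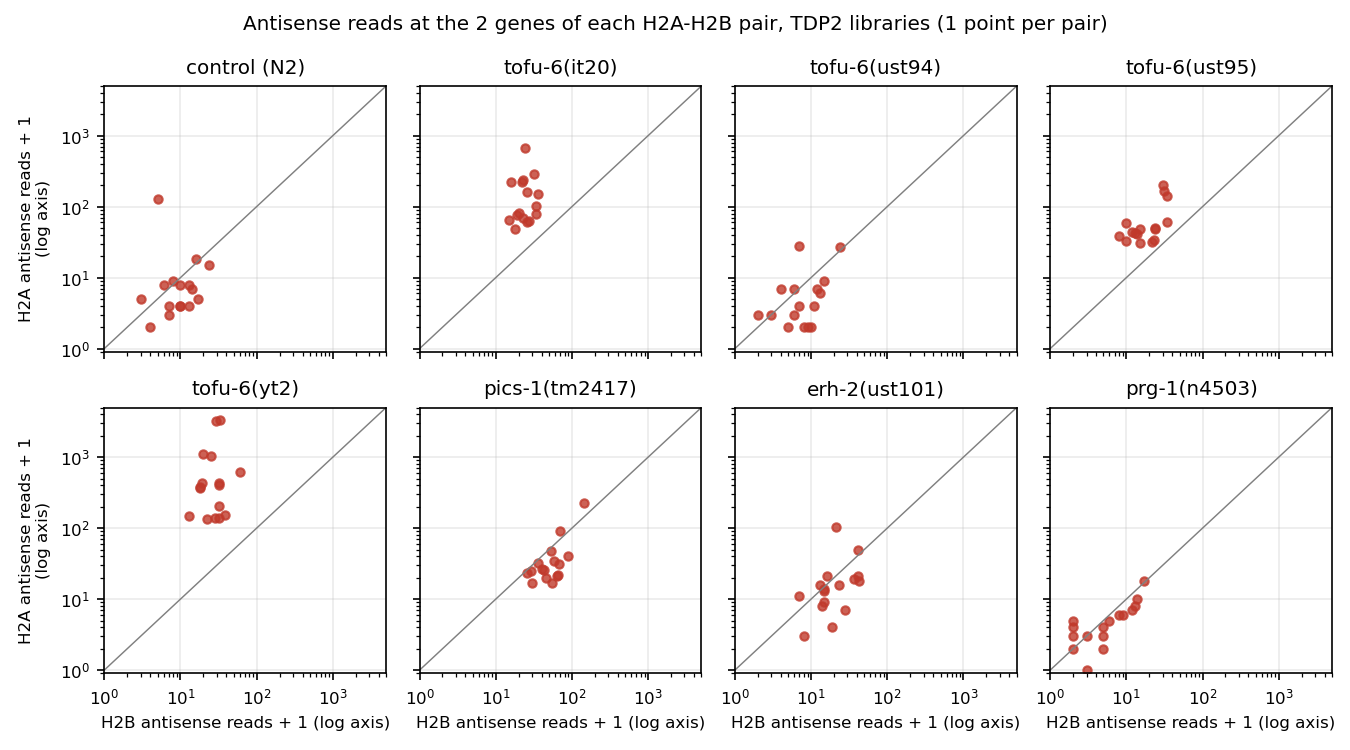
Antisense reads plus 1 at the H2A gene (y) against the H2B gene (x) of each of the 16 divergent pairs, log axes, 1 panel per TDP2 library, 1 point per pair, with the line of equality. All 16 points lie above the line in tofu-6(it20), tofu-6(ust95) and tofu-6(yt2), and 2 to 5 do in the other 5 libraries.

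In pics-1 and erh-2 the antisense reads of single genes did not pass the test. For pics-1 against N2 0 of 65 passed by edgeR or DESeq2, with a median log2 change of 1.85 against −0.03 over all features. At an unadjusted p below 0.05 there were 9, where 1174 of 22372 features were. The lowest p was that of his-41 (H2B), with 0.430 RPM in N2 and 18.2 in pics-1 (log2 5.00 ± 1.496, edgeR adjusted p = 0.184). By type the medians were 2.61 for H2B, 2.27 for H2A, 1.85 for H3 and 0.80 for H4, so H2A did not stand out there. For erh-2 0 of 65 passed by either tool, and the median was 0.77. At an unadjusted p below 0.05 there was 1 gene, where 2410 of 22372 features were. That gene was his-30 (log2 3.33 ± 1.69, edgeR adjusted p = 0.462), which had 1 antisense read in N2. Scaled to microRNA reads 23 genes were called higher in erh-2, where the median of all features was 2.79. Under that scaling 5595 of 22372 features were called higher.

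In prg-1 the antisense reads of 2 of 65 genes fell by edgeR and 0 rose, where 5.54% of features, and 12.0% of protein-coding genes on the antisense strand, were called lower. The share of histone genes called was thus below that of their strand. Both belong to the group of genes with an intron on chromosome V. The H2A gene his-35 had 13.6 RPM in N2 (127 reads), 18.1, 3.25, 15.02 and 76.8 in the tofu-6 alleles, 0 reads in prg-1, 7.57 in erh-2 and 28.4 in pics-1. Set against a floor of 3 reads in the prg-1 library, it was at least 39.4-fold lower than in N2 (edgeR adjusted p = 0.00123). The H4 gene his-37 had 10.5 RPM in N2 (98 reads), 6.94, 1.57, 5.33 and 10.5 in the alleles, 2 reads in prg-1, 4.83 in erh-2 and 22.8 in pics-1. Its ratio to N2 was 0.0219 (0.00262 to 0.0813), with a log2 change of −5.01 ± 1.56 (edgeR adjusted p = 0.0274). At both genes prg-1 was the lowest of the 8 libraries. The antisense reads of his-37 may in part be sense reads of nstp-10, which lies opposite. The whole set had a median log2 change of 0.00 in prg-1, and by type 0.78 for H3 and −1.64 for H4. DESeq2 called both genes, and RLE and microRNA scaling neither.

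Against prg-1, antisense reads of 13 of 65 genes rose in tofu-6 by edgeR, all 13 of them H2A, where 6.43% of features, and 14.2% of protein-coding genes on the antisense strand, were called higher. All 4 alleles were above prg-1 at 40 of the 65 genes (34.9% of antisense features) and below it at 0 (8.32%). The 13 include the 8 called against N2; the fit shares the tofu-6 libraries. The median log2 change was 1.95 over the 65 genes and 0.52 over all features. The largest was his-35 at 10.77 ± 2.24 (edgeR adjusted p = 0.000134), whose size depends on the 0 in prg-1. It was followed by his-47 at 6.28 ± 1.47 (edgeR adjusted p = 0.000753) and his-30 at 6.24 ± 1.61 (edgeR adjusted p = 0.00298), above prg-1 in 4 of 4 alleles. The size at his-30 depends on 1 read in prg-1. At 6 genes, all H2A, sense reads fell and antisense reads rose in this comparison. The 13 antisense calls became 3 without yt2, 5 without it20 and 24 without ust94, and 1 with RLE scaling.

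Genes that act with the histones did not share their low sense level. Of 28 DNA replication genes, 0 were called on either strand in tofu-6, pics-1, erh-2 or prg-1 against N2 by edgeR. The core histone genes also had 0 sense calls there, so a sense count of 0 does not separate a list from them. Their summed sense level was 524 RPM in untreated N2, 371 in prg-1, 871 in tost-1, 937 in erh-2, 1008 in pics-1 and 977 in tofu-6(ust94). Their median sense log2 change in the TDP2 libraries was 0.97, 0.30, 1.31 and 0.12 in tofu-6, pics-1, erh-2 and prg-1. Of 11 histone chaperone genes and of 15 genes of histone RNA processing, 0 were called in the same 4 comparisons, with sense medians of 0.93 and 1.23 in tofu-6. No Argonaute gene of 10 and no gene of 11 found RNA-dependent RNA polymerase and mutator genes was called there either, with sense medians of 0.68 and 1.34 in tofu-6.

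Histone variants and linker histones, whose mRNAs are mostly not tied to replication, were mixed. Of 14 variant or linker genes tested on the sense strand, 0 were called in tofu-6, pics-1, erh-2 or prg-1 by edgeR, as among the core genes. Their median was 0.13 in tofu-6. The variant H3 gene his-69 resembled the core genes, with 79 sense reads in untreated N2, 48 in prg-1, and 6, 2, 10 and 4 in tofu-6(ust94), pics-1, erh-2 and tost-1. The variant H3 gene his-72 had 102 reads in untreated N2, 105 in prg-1, 76 in tost-1, 87 in erh-2, 144 in pics-1 and 153 in tofu-6(ust94). Both were named after their values were seen. On the antisense strand 3 of 13 fell in prg-1, where 12.0% of protein-coding genes did, among them the linker histone genes hil-8 (log2 −9.25 ± 1.88, edgeR adjusted p = 0.000184) and his-24 (log2 −5.63 ± 1.54, edgeR adjusted p = 0.00742). At his-24 the antisense level was 272 RPM in TDP2 N2 and 4.04 in prg-1, and 197 to 837 in the 6 libraries of PICS mutants.

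The gene his-39, shorter than the others and without a partner, had 0.241 to 2.26 RPM sense reads in TDP2 libraries and 0.284 to 0.990 untreated. At 7 reads in untreated N2 and 21 after TDP2 it was too thinly covered to compare.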

How the data were processed

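Small RNA reads of 6 untreated and 8 TDP2 libraries were analysed as the counts per transcript and strand that the authors deposited. The submitters' processing notes name Bowtie2 as a tool. Not given in the sources used here are its version, the genome build, how reads mapping to several places were treated, and what did the counting. Sequence names in the files were matched to RefSeq locus tags for gene symbols (44187 of 45510 genes), since the files pair protein-coding rows with no his name. Histone types were assigned from coding length and textbook knowledge of the genes. Rows with no gene class (2 to 3 rows, 3 to 27 reads a library) were left out.

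Counts were summed per gene, sense and antisense apart. The TDP2 libraries were compared with edgeR 4.0.16 in R 4.3.3, with TMM scaling, glmQLFit and glmQLFTest, over 22372 features with 10 or more reads in a library and 30 or more over the fit. P-values were adjusted by Benjamini-Hochberg over all features, with a threshold of 0.05, and the error of a log2 change is its SE from the F statistic. Since no feature-specific spread entered this fit (the prior degrees of freedom were infinite), 1 extreme allele can pass the test. TDP2 and untreated libraries of 5 strains were compared over 21673 features with strain as a block, because both libraries of a pair carry the same strain. Untreated libraries, 1 a genotype, were compared as RPM ratios with exact 95% intervals and no test. DESeq2 1.42.0, other scalings, filters, summed copies and left-out libraries were alternatives. The script was tested on simulated data. Members and lists were chosen with earlier results of these data known. Genes were named by a rule: per histone type the gene with most sense and most antisense reads, and per TDP2 comparison and strand the 3 called genes with the largest change or, with none called, the one with the lowest p. Exceptions are said to be chosen after their values were seen.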

Additional observations from a re-analysis of the deposited data

Results flagged for a closer look

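Among 52 groups of 4 tofu-6 TDP2 libraries tested, 4 held a library far from the other 3, and chance alone flags about 1 in 20 groups. The antisense level of his-47 was 401 RPM in tofu-6(yt2) and 0.964 to 16.8 in the other alleles. For his-57 it was 410 RPM in tofu-6(yt2) and 3.13 to 32.5 in the others. For his-65 it was 134 RPM in tofu-6(yt2) and 0.723 to 11.6 in the others. These 3 genes share an annotation name, so their reads may not be independent. The sense level of his-31 was 8.82 RPM in tofu-6(ust95) and 3.01 to 3.98 in the other alleles.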

How the results depend on the processing

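Among summary values, 127 kept their direction and side of the threshold and 41 moved; the cause was not tested. For tofu-6 against N2, sense calls (0) became 1 with DESeq2, 2 with only tofu-6 and N2 in the fit, and 0 to 7 without 1 allele. Antisense calls (8) became 0 with RLE scaling, microRNA scaling, DESeq2 or copies of a type summed (0 of 5), 5 of 43 with copies of 1 name summed, and 0 to 5 without 1 allele. With microRNA scaling erh-2 had 1 sense and 23 antisense calls, where 5595 of 22372 features were called higher. For prg-1 the 2 antisense calls became 0 with RLE, microRNA scaling or summed types, 1 with no filter, and 1 to 2 without 1 tofu-6 allele. For tofu-6 against prg-1, sense calls (15) became 5 with RLE, 6 with microRNA scaling, 0 with summed types, 9 with summed names, and 0 to 31 without 1 allele. Antisense calls (13) became 1 with RLE, 4 with microRNA scaling, 5 with DESeq2, 1 of 5 with summed types, and 3 to 24 without 1 allele.

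With no replicate block, that is without the strain pairing, TDP2 against untreated gave 6 sense calls in place of 18 and 64 antisense calls in place of 65. Summed types gave 2 sense and 5 of 5 antisense calls, summed names 43 of 43 antisense, and leaving out 1 pair 11 to 20 sense and 41 to 64 antisense calls. With microRNA scaling the log2 changes of the 7 lower genes turned positive: his-12 1.04, his-16 1.06, his-40 0.99, his-43 1.01, his-57 1.40, his-61 1.02 and his-66 1.46. With reads outside structural RNA his-66 was at 0.0095. Per microRNA read, 45 genes were lower in untreated prg-1 in place of 4. MicroRNA scaling moved the median of all features by 1.75 (tofu-6), 1.497 (pics-1), 2.88 (erh-2) and 1.998 (prg-1) on the log2 scale. For TDP2 against untreated it moved that median by 2.24. Summed names were added after seeing the data. No gene had more than 7 antisense reads in an untreated library, so these allow no statement on single genes.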
